A study of Mus musculus with 48 samples.

Results

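Livers that expressed a *MYC* transgene in hepatocytes were compared with wild-type livers 4 days after induction, at the level of cytoplasmic RNA and of ribosome-protected fragments (RPFs), short stretches of message that a ribosome covers while it translates. The comparison held the 3 mice labelled Myc_day4 (M) and the 3 labelled WT_day4 (WT), each with an RPF and an RNA library from the same liver, and so used 12 of the 48 libraries and 6 of the 24 mice of the study. The sample labels describe male mice of 2 to 4 months, whereas the study's methods, which give a mixed C57BL/6 background, limit the virus experiments to males only at the lower of 2 virus concentrations, and the labels give the higher one here. All mice received AAV8.TBG.Cre, a virus in which the TBG promoter drives Cre recombinase in hepatocytes. M mice carried R26-LSL-MYC, a transgene at the Rosa26 locus that Cre frees from a stop cassette, and WT mice carried no mutant allele but got the same virus. Whole liver was profiled, so fewer cells of a type and less RNA per cell cannot be told apart, and library batches are not given in the sources used here.

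MYC is a transcription factor that pairs with MAX and binds E-box sequences near the start of genes for ribosomes, nucleotide synthesis and cell growth. Liver cells are mostly out of the cell cycle, make most of the proteins of blood plasma, and can re-enter the cycle when growth signals or an oncogene drive them. The question of the comparison was which mRNAs changed in level, and which changed in ribosome load, when MYC was the only oncogene induced.

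RPF libraries held 9742197 to 12739173 counts and RNA libraries 4537343 to 6540116. Levels are given as CPM, a count scaled to the library total and edgeR's TMM factor, and can be compared between mice but not between genes, since they are not divided by length. A gene was called when its Benjamini-Hochberg adjusted p from edgeR's quasi-likelihood F test over all genes was under 0.1, and errors after ± are standard errors of a log2 change over 3 mice a group unless named otherwise. The hepatocyte marker *Alb* had 43244, 48776 and 51562 RPF CPM in WT and 38428, 28238 and 37713 in M. The 10 most counted genes held 17.5% to 18.5% of RPFs in WT and 13% to 14.5% in M. Of the mice, 2 stood apart in part of their genes. WT mouse 2 was low in several acute phase genes, and M mouse 2 was high in macrophage markers, with 129 CPM of *Marco* RPFs against 10.2 and 3.55 in the other M mice and 7.52 to 10.6 in WT.

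Counts assigned to the mouse *Myc* gene were checked first. *Myc* (ENSMUSG00000022346, chr15:61857227-61862223, + strand, GRCm39 with GENCODE vM39, as for all positions given) had 16.6, 2.2 and 12 RPF CPM in WT mice 1, 2 and 3 and 57.7, 53.6 and 57.3 in M mice 1, 2 and 3. Every M mouse lay above every WT mouse, and the RPF level rose by 2.41 ± 0.40 on the log2 scale (adjusted p = 0.00203). *Myc* RNA was 25.1, 23.5 and 26.2 CPM in WT and 25.9, 27 and 31.1 in M, groups that overlapped, with a log2 change of 0.16 ± 0.12 (adjusted p = 0.395). *Myc* TE, RPFs relative to RNA as tested below, rose by 2.25 ± 0.47 (adjusted p = 0.0333), a call that was lost in DESeq2 and without WT mouse 3, M mouse 1 or M mouse 2. Reads of the transgene were not told apart from those of the mouse gene, so the level of either alone is unknown. *Glul*, glutamine synthetase of pericentral hepatocytes and a target of β-catenin, had 772, 782 and 754 RPF CPM in WT and 639, 746 and 538 in M, a log2 change of -0.26 ± 0.11 that missed the threshold (adjusted p = 0.104). The Wnt receptor gene *Lgr5* fell by 0.46 ± 0.12 in RPFs (adjusted p = 0.0219), from 15.9, 16.3 and 16 to 10.3, 13.6 and 11.2 CPM, and the Wnt feedback gene *Axin2* had 2.59, 3.19 and 3.1 CPM in WT and 1.63, 2.57 and 1.44 in M (log2 change -0.63 ± 0.27, adjusted p = 0.115).

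Across the liver, RPFs rose for 2061 and fell for 1637 of 11115 genes tested, 18.5% and 14.7%. Of these, 2001 and 1531 did not overlap between the groups. Over all 15843 genes in the RPF tables, 17.6% had every M mouse above every WT mouse and 14.1% had every M mouse below. The median size of the called changes was 0.54 on the log2 scale among the risers and 0.49 among the fallers, and 409 and 176 changed by more than 2-fold. Cytoplasmic RNA rose for 1507 and fell for 1146 of 11173 genes, 13.5% and 10.3%. RNA fallers numbered 709 without M mouse 1, and RNA risers 994 in DESeq2. All genes tested had a median log2 change of 0.01 in RPFs and -0.00 in RNA. The shares of genes called, 18.5% and 14.7% in RPFs and 13.5% and 10.3% in RNA, are the background against which each gene group below is read.

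Among well-expressed genes whose groups did not overlap, *Mcm6*, *Rrm2* and *Myc* rose most in RPFs, ahead of *Fam13a*, and *Mki67* rose most in RNA. These and the histone gene *H3c14*, also among the 10 that rose most in RPFs, are left to their gene groups. *Fam13a* had 5.43, 11.1 and 8.27 RPF CPM in WT and 48.5, 40.8 and 29.8 in M, and 7.9, 7.96 and 11.2 against 48.7, 40.2 and 35 RNA CPM. Its groups did not overlap, and it rose by 2.28 ± 0.24 in RPFs and 2.20 ± 0.17 in RNA (adjusted p = 0.00019 and 5.94e-06). *Sucnr1*, the receptor for the metabolite succinate, rose by 1.63 ± 0.15 in RPFs and 1.68 ± 0.16 in RNA. *Aldh1b1*, a mitochondrial aldehyde dehydrogenase, had 67.6, 69.8 and 102 RPF CPM in WT and 221, 229 and 215 in M and rose by 1.48 ± 0.14. *Car14*, a membrane carbonic anhydrase, and *Ces2g*, a carboxylesterase, rose in RNA by 1.36 ± 0.11 and 1.35 ± 0.10. *Hamp2*, a relative of the iron hormone hepcidin, rose by 1.49 ± 0.31 in RPFs (adjusted p = 0.00617).

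Among well-expressed genes, those that fell most included the following. *Saa1* (chr7:46389916-46392547, - strand), serum amyloid A of the acute phase, had 1270.3, 155 and 1326 RPF CPM in WT and 24.6, 79.1 and 15.3 in M. WT mouse 2 was far below the other WT mice, yet above every M mouse, and the level fell by 4.52 ± 0.81 (adjusted p = 0.00292). *Fgl1*, a liver-secreted fibrinogen-like protein, had 1486, 1057 and 1332 CPM in WT and 193, 299 and 153 in M and fell by 2.59 ± 0.22 (adjusted p = 7.51e-05). *Steap4*, a metalloreductase, fell by 2.43 ± 0.40, and *Fabp5*, a fatty acid-binding protein, fell by 2.43 ± 0.19. *Slc41a2*, a magnesium transporter, went from 142, 81.7 and 119 CPM to 22.7, 19.4 and 18.9 and fell by 2.49 ± 0.18, and *Dnajc12*, a co-chaperone, fell by 2.60 ± 0.40.

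**Figure D1:**
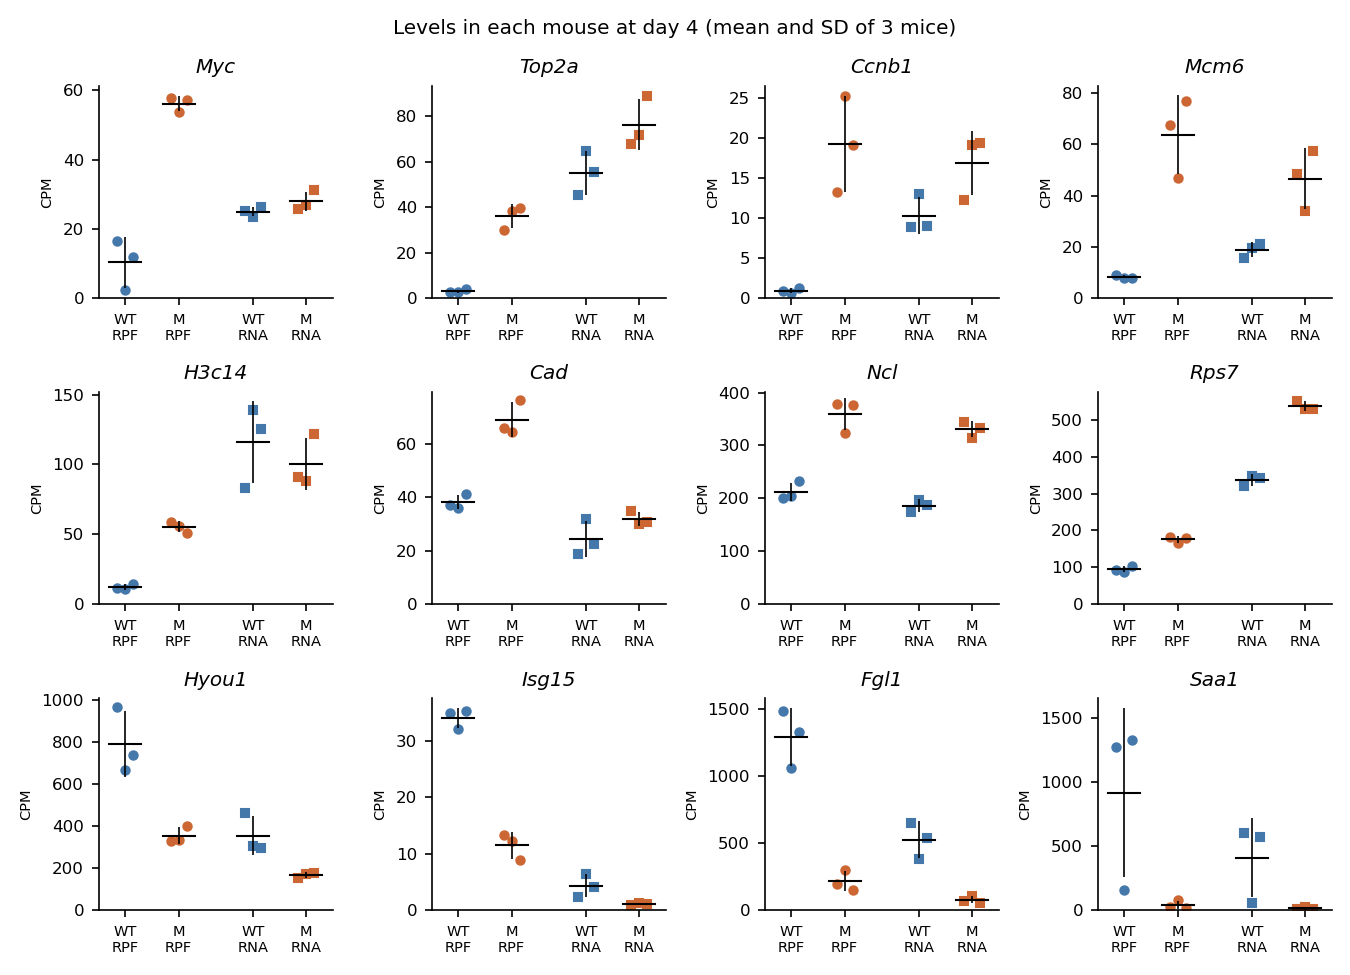
Levels of 12 genes in each mouse at day 4, in CPM on linear axes that start at 0, with RPFs as circles and RNA as squares, WT in blue and M in orange; bars and lines show the mean and SD of 3 mice. *Top2a*, *Ccnb1* and *H3c14* RPFs separate the groups far more than their RNA does, *Ncl* and *Rps7* rise in both, and *Hyou1*, *Isg15*, *Fgl1* and *Saa1* fall in both.

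Genes of DNA replication rose almost throughout. Of 52 members in the tables, 48 could be tested in RPFs, and 42 rose, while the other 6 did not pass the test; the median log2 change was 0.98. Counted with or without the test, 47 of the 52 had more RPFs in every M mouse than in any WT mouse, which held for 17.6% of the 15843 genes in the RPF tables. In RNA, 22 of 44 rose, with a median of 0.52. *Mcm6*, a subunit of the replicative helicase, had 9.1, 7.93 and 7.96 RPF CPM in WT and 67.7, 46.9 and 77 in M, and 15.8, 19.6 and 21.3 against 48.5, 33.9 and 57.6 RNA CPM. It rose by 2.93 ± 0.18 in RPFs and 1.29 ± 0.18 in RNA (adjusted p = 1.77e-05 and 0.000266). *Mcm5*, of the same helicase, rose by 2.63 ± 0.16 in RPFs. *Uhrf1*, which guides copying of DNA methylation, had 0.418, 0.33 and 0.517 RPF CPM in WT and 12.7, 8.15 and 10.5 in M. *Lig1*, the ligase of the lagging strand, rose by 2.18 ± 0.18 and *Mcm3*, of the helicase, by 1.56 ± 0.13.

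Mitotic genes rose by larger amounts. RPFs of 78 of 83 tested members rose and 1 fell, with a median log2 change of 3.11, or 2.71 with the 14 members that had at most 3 counts in every WT mouse set at their lower bound. The expression filter could be passed through M alone, so the whole list was counted here too, and 84 of 92 members in the tables had every M mouse above every WT mouse. RNA rose for 49 of 79 and fell for 1, with a median of 0.82. Summed over the list, RPFs were 238, 223 and 242 CPM in WT and 646, 813 and 794 in M, and RNA was 499, 674 and 669 in WT and 825, 939.8 and 1047 in M. The M mice exceeded the WT mice in both sums, more in RPFs than in RNA.

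*Ccnb1* (chr13:100915153-100923116, - strand), cyclin B1 of the mitotic kinase, had 0.919, 0.661 and 1.24 RPF CPM in WT and 13.3, 25.3 and 19.1 in M, and 8.88, 13 and 9.03 against 12.3, 19.1 and 19.4 RNA CPM. Its RNA groups touched, with M mouse 1 below WT mouse 2, while its RPF groups were far apart, a rise of 4.34 ± 0.32 (adjusted p = 3.31e-05). *Ccna2*, cyclin A2, rose by 3.90 ± 0.24 in RPFs and 0.76 ± 0.23 in RNA. *Plk1*, a kinase of mitotic entry and spindle assembly, had 0.585, 0.44 and 0.724 RPF CPM in WT and 6.6, 9.08 and 7.1 in M, and its RNA changed by 0.23 ± 0.19 (adjusted p = 0.452). For *Mki67*, the proliferation marker, RNA groups were far apart as well. It had 4.34, 3.69 and 4.08 RNA CPM in WT and 31.1, 47.6 and 43.4 in M, and rose by 3.93 ± 0.26 in RPFs and 3.33 ± 0.20 in RNA. *Bub3*, the list's most counted member and a checkpoint protein also used outside mitosis, had 49.3, 46.1 and 47.4 RPF CPM in WT and 43.2, 48.1 and 48.3 in M, a log2 change of -0.03 ± 0.08 (adjusted p = 0.804).

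Repair genes of homologous recombination and the Fanconi pathway rose in 21 of 31 tests of RPFs and 12 of 27 of RNA, with medians of 0.92 and 0.54. Of those tested in RPFs, 4 were at the floor of at most 3 counts in every WT mouse and so passed the filter through M alone. Of all 36 members in the tables, 30 had more RPFs in every M mouse than in any WT mouse, beside 17.6% of all genes. *Atr*, a kinase that senses stalled forks, rose by 0.83 ± 0.12 from 33.5, 39 and 40.8 CPM. *Chek1*, the checkpoint kinase that ATR switches on, had 0.501, 0.33 and 0.413 RPF CPM in WT and 3.67, 3.86 and 5.41 in M and rose by 3.32 ± 0.32 (adjusted p = 0.000113).

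Replication-dependent histone genes, whose mRNAs end in a stem-loop instead of a poly(A) tail, changed in RPFs with little change in RNA. RPFs rose for 29 of 34 members tested and fell for 1, a median log2 change of 1.20, while RNA rose for 4 and fell for 2 of 53, a median of -0.05. Of all 51 members in the RPF tables, 32 had more RPFs in every M mouse than in any WT mouse and 1 had fewer in every M mouse, against 17.6% and 14.1% of all genes. The RPF median was also 1.20 with the 1 member at the WT floor set at its lower bound. *H3c14* had 11.2, 10.5 and 14.3 RPF CPM in WT and 59.1, 56.1 and 51.1 in M, against 83.3, 139 and 125 and 91.2, 88.3 and 122 RNA CPM. It rose by 2.21 ± 0.12 in RPFs (adjusted p = 1.04e-05), and its RNA changed by -0.21 ± 0.17 (adjusted p = 0.424). *H1f1*, a linker histone, differed from the core histones named here in that both levels rose, by 3.18 ± 0.16 in RPFs and 3.36 ± 0.33 in RNA. Core histone genes are near-identical, so reads may be split between them and the value of a single gene is uncertain. The histone RNA calls depended on single mice, with 13 members falling without WT mouse 1 and 9 rising without WT mouse 2.

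The G1 genes that lead into this programme moved in both directions. Of 24 tested, 8 rose in RPFs and 3 fell. *Ccnd1*, the cyclin of growth-factor signalling in hepatocytes, had 35.8, 29.5 and 35.1 RPF CPM in WT and 13.8, 14.4 and 8.79 in M, and 65.3, 70.9 and 75.2 against 39.6, 43.8 and 40.8 RNA CPM. The groups did not overlap, and it fell by 1.44 ± 0.17 in RPFs and fell by 0.76 ± 0.10 in RNA (adjusted p = 0.000326 and 0.000141). *Cdkn1a*, the kinase inhibitor p21, fell by 0.76 ± 0.11 in RPFs, from 74.7, 70.5 and 72.3 to 51, 39.9 and 37.4 CPM. *Ccne2*, cyclin E2 of the start of S phase, rose by 1.88 ± 0.35, and *Cdk6*, a partner of D cyclins, by 0.64 ± 0.11. Of 35 p53 targets and apoptosis regulators tested, 12 rose and 5 fell. *Eda2r* rose by 1.45 ± 0.22, and *Casp8*, the initiator caspase of death receptors, fell by 0.56 ± 0.09.

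Genes for the synthesis of nucleotides, serine and one-carbon units were also called higher. RPFs rose for 27 of 34 members and RNA for 22 of 34, with medians of 0.66 and 0.39. *Rrm2*, the limiting subunit of ribonucleotide reductase, had 6.18, 8.15 and 6.93 RPF CPM in WT and 48.1, 41.6 and 45.2 in M and rose by 2.67 ± 0.12 (adjusted p = 7.74e-06). *Cad*, which starts pyrimidine synthesis, rose by 0.86 ± 0.09, from 37.2, 36.1 and 41.1 to 66.1, 64.7 and 76.6 CPM. *Tyms*, thymidylate synthase, rose by 1.06 ± 0.12 and *Dut*, which keeps uracil out of DNA, by 1.68 ± 0.14. Among polyamine genes, 4 of 14 rose and 2 fell, and with any one mouse left out 3 or 4 rose and 0 or 1 fell. The spermidine synthase *Srm* rose by 0.72 ± 0.13. *Odc1*, the rate-limiting enzyme of the pathway, had 15.4, 22.6 and 31.9 RPF CPM in WT and 41.6, 24.8 and 42.9 in M. Its groups overlapped, and it rose by 0.65 ± 0.26 (adjusted p = 0.0969).

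Cytosolic ribosomal protein genes rose nearly as a block. RPFs rose for 75 of 80 tested and RNA for 76 of 83, with medians of 0.62 and 0.74, and no member passed the test in the other direction. Summed RPFs were 6291, 5671 and 7046 CPM in WT and 10207, 8842 and 9877 in M, and summed RNA 16457, 18752 and 16883 in WT and 31403, 28351 and 28928 in M. Both sums separated the groups in every mouse. *Rps7*, of the small subunit, had 93.2, 86.9 and 102 RPF CPM in WT and 182, 166 and 178 in M and rose by 0.90 ± 0.08 (adjusted p = 9.78e-05). *Rpl22l1*, a variant large-subunit protein, rose by 1.05 ± 0.09 in RPFs and 1.18 ± 0.10 in RNA. *Rps12* rose by 1.40 ± 0.21 and 1.21 ± 0.10, and the stalk protein *Rplp1* by 0.97 ± 0.14 and 1.33 ± 0.10. *Rpl10* had 303, 266 and 347 RPF CPM in WT and 387, 323 and 368 in M, which overlapped. Ribosomal protein genes have many processed copies, which makes the value of a single gene uncertain.

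Genes of ribosome assembly were called higher in part. Of 93 genes for ribosome biogenesis and RNA polymerase I, 42 rose and 3 fell in RPFs, and 32 rose and 1 fell in RNA, with a median of 0.28 in each. The RPF fallers numbered 0 without WT mouse 1, and the RNA risers 21 without M mouse 1. *Ncl*, nucleolin, had 200.0, 205 and 232 RPF CPM in WT and 378, 324 and 377 in M and rose by 0.76 ± 0.09 (adjusted p = 0.000346). *Polr1a* and *Polr1b*, both large subunits of RNA polymerase I, rose by 0.90 ± 0.08 and 0.83 ± 0.11. *Dkc1*, the pseudouridine synthase of rRNA, rose by 1.15 ± 0.10. Nuclear transport genes rose in 22 of 38 RPF tests and fell in 2, or 1 without WT mouse 1, WT mouse 3, M mouse 1 or M mouse 2, led by the importin *Ipo4* at 0.89 ± 0.09; in RNA 11 of 39 rose, or 6 without M mouse 1.

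Genes that charge tRNAs split. RPFs rose for 23 of 39 aminoacyl-tRNA synthetases and fell for 4. *Vars1*, for valine, had 49.7, 50.7 and 54.1 CPM in WT and 124, 110.1 and 120.2 in M and rose by 1.20 ± 0.08, and *Iars1*, for isoleucine, rose by 0.59 ± 0.07. *Aars1*, for alanine, had 486, 420.2 and 464 CPM in WT and 291, 286 and 271 in M and fell by 0.69 ± 0.08 (adjusted p = 0.000275). The other 3 that fell were *Wars1*, *Tars1* and *Cars1*, for tryptophan, threonine and cysteine, which are named after their values were seen. Without WT mouse 1, 1 synthetase fell. In the integrated stress response, which cells use under amino acid shortage, 8 of 16 genes fell and 4 rose, or 2 when any one of WT mice 1 and 3 and M mice 1 and 3 was left out. *Atf4*, its transcription factor, fell by 0.67 ± 0.16, from 12.4, 10.0 and 12.9 to 6.36, 8.8 and 7.02 RPF CPM, and its target *Asns*, asparagine synthetase, fell by 1.00 ± 0.26. *Trib3*, another target, rose by 1.42 ± 0.36.

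Translation factors rose in 16 of 51 RPF tests and fell in 2, against 18.5% and 14.7% of all genes. *Eif5a*, the factor that carries hypusine, rose by 0.51 ± 0.08. The initiation factor *Eif1* fell by 0.41 ± 0.07, from 422, 454 and 413 to 330.2, 314 and 325 RPF CPM. Chaperones of the cytosol and mitochondria went in both directions, 8 rising and 9 falling of 21. The mitochondrial chaperonin *Hspd1* had 520.2, 518 and 588 CPM in WT and 933, 866 and 1011 in M and rose by 0.79 ± 0.09, and the co-chaperone *Dnaja1* fell by 0.71 ± 0.09. Proteasome subunits showed 4 risers and 4 fallers among 47.

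Mitochondrial genes were called higher in part, and most did not pass the test. RPFs rose for 31 of 76 mitochondrial ribosomal proteins and fell for 1, a median of 0.22, and rose for 34 of 89 nuclear genes of oxidative phosphorylation and fell for 4, a median of 0.13. Without M mouse 1 these counts of risers were 15 and 16, and without WT mouse 3 they were 20 and 20. Fallers in oxidative phosphorylation numbered 2 without WT mouse 1 or M mouse 1. Risers among cytosolic ribosomal proteins numbered 68 or more with any one mouse left out. *Mrps35* had 35.2, 39.5 and 38.9 CPM in WT and 60.6, 59 and 58.8 in M and rose by 0.65 ± 0.08. *Ndufs1*, of complex I, had 256, 298 and 270.0 CPM in WT and 409, 389 and 421 in M and rose by 0.57 ± 0.08 (adjusted p = 0.000812). *Atp5if1*, the inhibitor of ATP synthase, rose by 0.67 ± 0.13.

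Hepatocyte metabolism changed in both directions within most pathways. Of 55 amino acid catabolism genes, 26 rose and 8 fell in RPFs, among them *Prodh2* of hydroxyproline breakdown at 0.83 ± 0.08 and the glycine decarboxylase *Gldc* at 0.50 ± 0.07, while *Cbs* of transsulfuration fell by 0.54 ± 0.08. *Gls2*, liver glutaminase, had 210.3, 258 and 267 CPM in WT and 362, 356 and 417 in M and rose by 0.62 ± 0.10. *Cps1*, the rate-limiting enzyme of the urea cycle, had 5505, 5666 and 6107 CPM in WT and 6577, 6178 and 6424 in M (log2 change 0.15 ± 0.07, adjusted p = 0.165). Of 22 genes of gluconeogenesis and glycogen, 7 rose and 1 fell. The one that fell was *Pck1*, the rate-limiting step of glucose synthesis, which had 2469, 3858 and 2969.8 CPM in WT and 1782, 1657 and 1365 in M and fell by 0.95 ± 0.15. *Slc2a2*, the hepatocyte glucose transporter, rose by 1.03 ± 0.11 and the glycogen branching enzyme *Gbe1* by 0.66 ± 0.08. In glycolysis 6 of 25 rose and 4 fell. *Ldha*, lactate dehydrogenase A and a textbook MYC target, had 1413, 1185 and 1056 CPM in WT and 697, 597 and 586 in M and fell by 0.96 ± 0.11 (adjusted p = 0.000349). Fatty acid oxidation had 14 risers and 5 fallers of 41, with 8 risers and 9 fallers without M mouse 3 and 3 fallers without WT mouse 2, and the thiolase *Acat1* rose by 0.64 ± 0.08. Counts here were small enough to rest on 1 mouse. Fallers in amino acid catabolism numbered 4 without WT mouse 3 and risers in glycolysis 3 without M mouse 1.

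**Figure D2:**
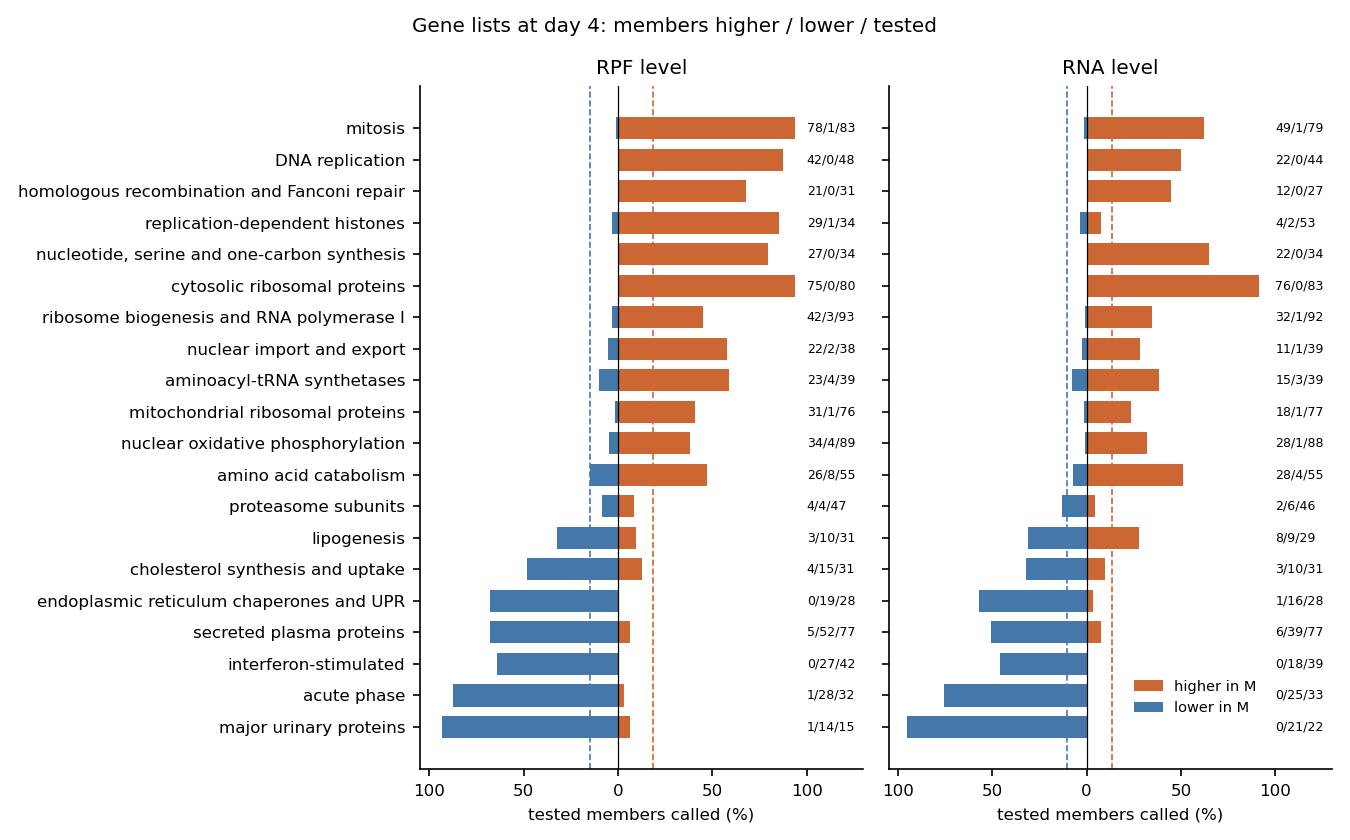
Share of tested list members called higher (orange, to the right) or lower (blue, to the left) in M at day 4, in percent, for RPFs and RNA; dashed lines mark the share of all genes, and the numbers give members higher, lower and tested. Mitosis, replication and cytosolic ribosomal protein genes lie far right of the dashed line in RPFs, and acute phase, interferon and major urinary protein genes far left of it.

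Acute phase genes, which hepatocytes switch on under interleukin 6 and STAT3, fell together. RPFs fell for 28 of 32 and rose for 1, a median log2 change of -1.09, and RNA fell for 25 of 33, a median of -1.12. Summed RPFs were 74265, 53291 and 69265 CPM in WT and 33019.9, 32172 and 32179 in M, and 23 to 29 members fell with 1 mouse left out. *Hpx*, hemopexin, had 10109, 7138 and 9865 RPF CPM in WT and 3963, 4126 and 3261 in M and fell by 1.26 ± 0.14 (adjusted p = 0.000242). *Fgb*, a fibrinogen chain, went from 8865, 7051 and 8514 to 4173, 3864 and 4404 CPM and fell by 0.97 ± 0.10. *Apcs*, serum amyloid P, fell by 2.34 ± 0.25. *Stat3*, the transcription factor of the response, had 329.8, 227 and 286 CPM in WT and 134, 133 and 116 in M and fell by 1.14 ± 0.13.

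Other plasma proteins fell by less. Of 77 secreted plasma protein genes, RPFs fell for 52 and rose for 5, a median of -0.33, and RNA fell for 39 and rose for 6. Without M mouse 1 the risers were 2 and 3. *C8a*, of the complement attack complex, had 1251, 1194 and 1247 CPM in WT and 659, 684 and 647 in M and fell by 0.89 ± 0.07 (adjusted p = 4.02e-05). The apolipoprotein *Apoa1* fell by 0.71 ± 0.07 and *Apoa4* fell by 1.11 ± 0.11, and *Alb*, albumin, fell by 0.46 ± 0.12. *Trf*, transferrin, fell by 0.69 ± 0.11.

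The endoplasmic reticulum, where these proteins fold, also showed falls. RPFs fell for 19 of 28 chaperones and unfolded protein response genes, a median of -0.45, and the other 9 did not pass the test. RNA fell for 16 and rose for 1 of 28. *Hyou1*, a chaperone of the lumen, had 967, 666 and 738 CPM in WT and 330.1, 331 and 399 in M and fell by 1.16 ± 0.14 (adjusted p = 0.000327). *Creld2* fell by 1.54 ± 0.23, *Sdf2l1* fell by 0.94 ± 0.13 and the secreted factor *Manf* fell by 0.93 ± 0.15. *P4hb*, protein disulfide isomerase, had 2617, 2564 and 2625 CPM in WT and 2544, 2199 and 2846 in M, a log2 change of -0.04 ± 0.09 (adjusted p = 0.797).

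Interferon-stimulated genes were lower. RPFs fell for 27 of 42 and RNA for 18 of 39, with medians of -0.58 and -0.45, and the rest did not pass the test. Summed RPFs were 3148, 3280.5 and 3267 CPM in WT and 2170.5, 2545 and 2069.6 in M. *Isg15*, a ubiquitin-like antiviral protein, had 34.8, 32 and 35.2 CPM in WT and 13.3, 12.3 and 8.79 in M and fell by 1.57 ± 0.14 (adjusted p = 9.01e-05). *Ifit1*, which binds foreign RNA, fell by 1.22 ± 0.14 and *Irf9*, of the interferon transcription complex, fell by 0.94 ± 0.12.

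Major urinary protein genes encode pheromone carriers that male liver makes in larger amounts than female liver, and the sex of single mice was not checked here. RNA fell for 21 of 22, a median of -1.81, and the summed RNA was 247931, 251649 and 200677 CPM in WT and 66821, 87844 and 83277 in M. RPFs fell for 14 and rose for 1 of 15. Members are near-identical, and the libraries split them differently. *Mup2* had 10417, 10477 and 8062 RNA CPM in WT with 0.167 to 0.330 RPF CPM, and values of single members are uncertain.

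**Figure D3:**
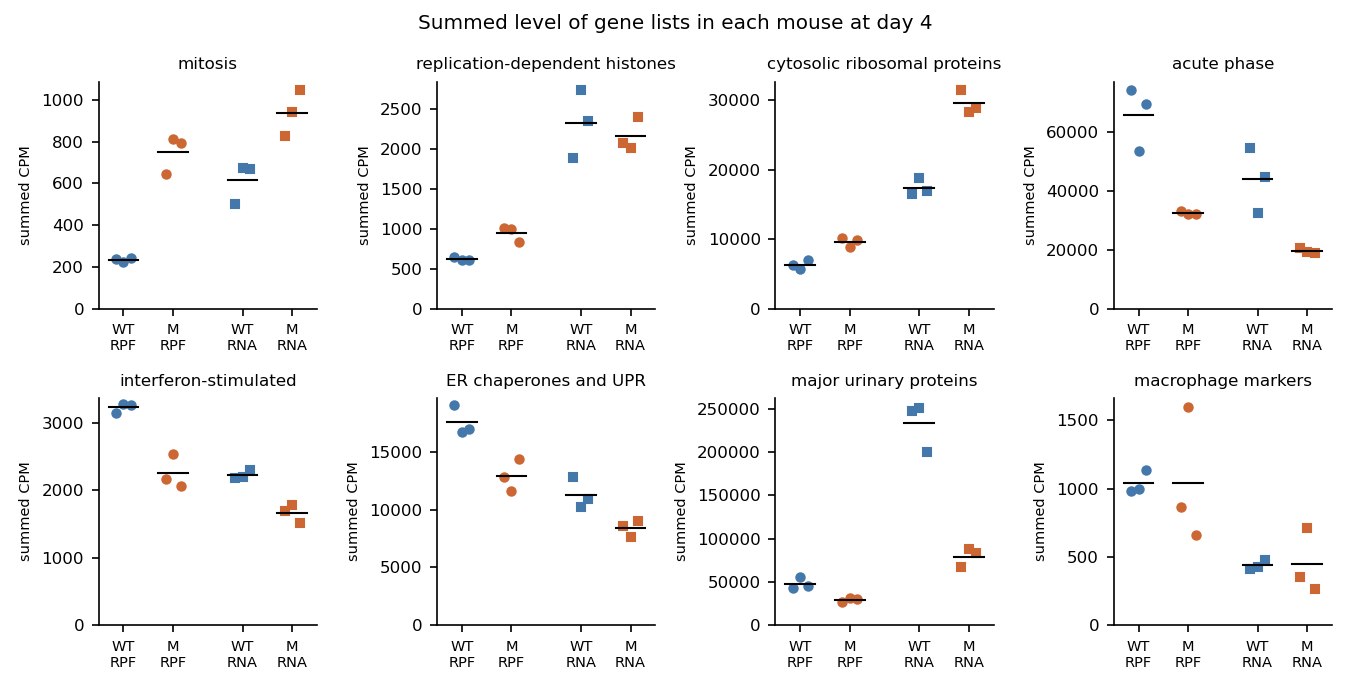
Summed level of 8 gene lists in each mouse at day 4, in CPM on linear axes from 0, with RPFs as circles, RNA as squares, WT in blue, M in orange and the mean of 3 mice as a bar. The groups separate in every list shown except macrophage markers, where M mouse 2 lies above all WT mice, and histone RNA.

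Lipid synthesis genes moved in both directions. Of 31 cholesterol genes, 15 fell and 4 rose in RPFs, or 2 without WT mouse 1, WT mouse 3 or M mouse 3. *Sqle*, the squalene epoxidase that limits the later steps, had 134, 91.9 and 139.9 CPM in WT and 52, 58.3 and 48.9 in M and fell by 1.20 ± 0.15, and *Cyp51* fell by 0.59 ± 0.08. Of 31 lipogenesis genes 10 fell and 3 rose, the risers numbering 1 without WT mouse 1, M mouse 1 or M mouse 3 and 7 without M mouse 2. The median RPF change of the list was -0.01, and in RNA 9 of 29 fell and 8 rose, the fallers numbering 4 without WT mouse 3 or M mouse 2. Among those that fell in RPFs, the elongase *Elovl3* fell by 1.25 ± 0.11, the desaturase *Scd1* fell by 0.61 ± 0.12 and the lipid droplet coat *Plin2* fell by 0.95 ± 0.13. *Acly*, which makes cytosolic acetyl-CoA, rose by 0.55 ± 0.14.

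Among hepatocyte transcription factors, 10 of 30 fell and 2 rose in RPFs, with 6 falling without WT mouse 1 and 0 rising without M mouse 1. In RNA 4 of the 30 fell, or 2 without WT mouse 1 or M mouse 3, and 1 rose, with a median of 0.01, where 10.3% of all genes fell. *Foxa3* had 73.7, 58.1 and 53 CPM in WT and 25.7, 22.1 and 17.8 in M and fell by 1.50 ± 0.15, and *Cebpb*, also a factor of the acute phase, fell by 1.03 ± 0.09. Zonal lists held both risers and fallers. Of 25 pericentral genes 10 fell and 3 rose, as *Gulo* fell by 0.62 ± 0.08 and the Wnt inhibitor *Notum* fell by 0.64 ± 0.12, and of 23 periportal genes 8 rose and 6 fell. *Cyp2e1*, a defining pericentral gene, had 4239, 4785 and 4604 RPF CPM in WT and 4714, 4600.4 and 5027 in M (log2 change 0.07 ± 0.08, adjusted p = 0.53). Cytochromes P450 had 11 risers and 19 fallers of 50 and conjugating enzymes 11 and 14 of 42, the last being 9 without WT mouse 1. *Cyp2b10*, a target of the xenobiotic receptor CAR, rose by 3.19 ± 0.38 from 0.167, 0.22 and 0.517 CPM in WT, and *Gstt3*, a glutathione transferase, by 1.35 ± 0.16. Bile acid genes had 6 risers and 4 fallers of 27, with *Akr1d1* of bile acid synthesis at 0.81 ± 0.09 and the uptake carrier *Slc10a1* at 0.43 ± 0.07.

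Markers of other liver cells gave these values. RPFs fell for 6 of 19 tested endothelial markers, 5 of 19 stellate and 5 of 7 neutrophil and blood markers, 2 of 8 cholangiocyte markers fell and 2 rose, and 3 of 17 macrophage markers fell. Summed macrophage RPFs were 985, 998 and 1136 CPM in WT and 868, 1598 and 659 in M. Without M mouse 2, 9 macrophage and 12 endothelial markers fell, and stellate fallers numbered 2 without WT mouse 3 and 8 without WT mouse 2. Cholangiocyte fallers numbered 4 without WT mouse 2. The Kupffer cell gene *Clec4f* fell by 0.49 ± 0.10, the endothelial receptor *Kdr* fell by 0.33 ± 0.09 and the stellate gene *Dcn* fell by 0.28 ± 0.09. Of the defining markers, *Camp* and *Elane* had 0 RPF counts in all 6 mice. Median RPF changes were -0.22 for endothelial, -0.24 for stellate, -0.08 for macrophage and -0.63 for neutrophil and blood markers, beside -1.09 for acute phase and -0.58 for interferon genes. The macrophage median was -0.44 without M mouse 2 and 0.07 without M mouse 3. Whether cell numbers had a part in any result was not tested.

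RPF and RNA changes were then set side by side for the 10405 genes tested in both. They had the same sign in 77.0% of genes, with Pearson's r of 0.748 and a Spearman rank correlation of 0.734 across genes, which come from the same 6 mice and are not independent replicates. Both levels rose for 1116 genes and both fell for 817. In RPFs only, 840 genes were called higher and 760 lower, in RNA only 349 higher and 284 lower, and 3 were called in opposite directions. The other level then missed its threshold, which is not a test that it stayed unchanged, and RPF libraries held more counts than RNA libraries.

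**Figure D4:**
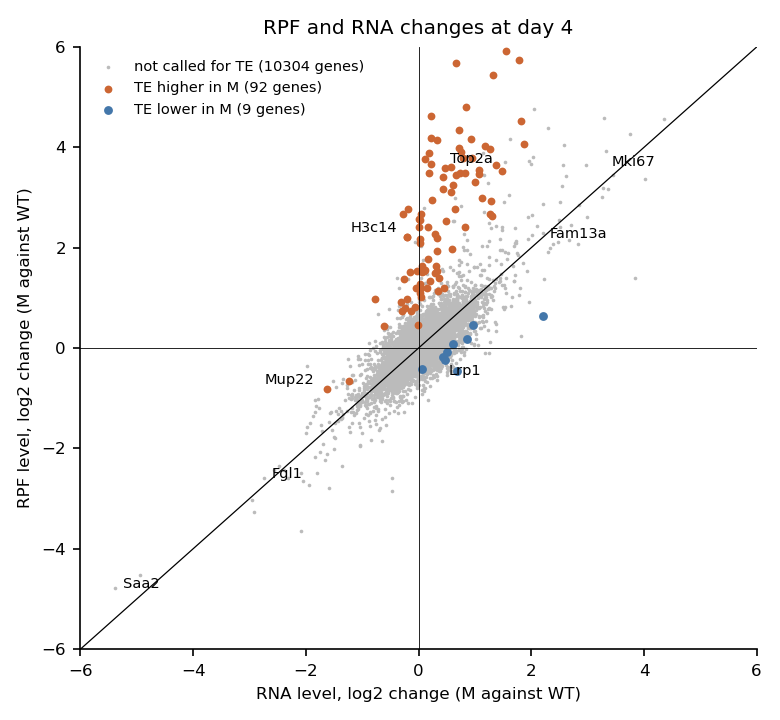
Log2 change of the RPF level against that of the RNA level for each gene tested in both at day 4, with the line of equal change; orange points are the 92 genes with higher TE in M and blue points the 9 with lower TE. Most genes follow the line, and the orange points rise in RPFs by a median of 2.60 while their RNA changes by 0.30.

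Translation efficiency (TE), RPFs relative to RNA, was tested by a term for group by library type. TE rose for 92 and fell for 9 of 10405 genes, 0.884% and 0.0865%, and with both libraries of a mouse joined as a block for 182 and 94, which included the 92. Of the 92, RPFs rose for 90 and RNA for 33, and 11 were at the floor of at most 3 RPF counts in every WT mouse. The cell cycle, replication, repair and histone lists held 65 of them, and 21 were in none of the lists. Without WT mouse 3 there were 42 risers, without M mouse 1 there were 54 and without WT mouse 2 there were 59.

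By role, 33 of 75 mitotic genes rose in TE, 17 of 34 histone genes, 7 of 43 replication genes and 7 of 25 repair genes. Of those tested, 9 mitotic, 3 repair and 1 histone genes were at the WT floor, so these counts are of tested members only. Without WT mouse 3 these counts were 19, 8, 1 and 4, and without M mouse 1 replication genes numbered 2 and histone genes 9. *Ccnb1* TE rose by 3.63 ± 0.44 (adjusted p = 0.000401) and *Plk1* TE by 3.44 ± 0.34 (adjusted p = 7.67e-05). *Kif11*, the motor that pushes spindle poles apart, had 1.34, 1.54 and 1.24 RPF CPM in WT and 14.9, 13.7 and 17.8 in M, against 11.1, 14.6 and 14.4 and 20.1, 21.5 and 25.7 RNA CPM, and rose in TE by 2.74 ± 0.26 (adjusted p = 6.10e-05). *Iqgap3*, a scaffold of dividing cells, rose by 3.96 ± 0.53, *Prc1*, which bundles the midzone, by 3.03 ± 0.47 and the condensin subunit *Ncapg* by 3.23 ± 0.38. Among replication genes *Mcm6* rose by 1.64 ± 0.30, and *Rrm2*, of nucleotide supply, by 1.41 ± 0.26. *Mki67* TE, by contrast, changed by 0.60 ± 0.41 (adjusted p = 0.885). *H3c14* TE rose by 2.43 ± 0.25 (adjusted p = 7.91e-05).

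Among genes with higher TE, RNA fell for 3. In 2 of them RPFs fell less than RNA. These were *Cyp2d40*, a cytochrome P450 whose RNA fell by 1.23 ± 0.11 and RPFs fell by 0.66 ± 0.08, and *Mup22*, whose RNA fell by 1.63 ± 0.13 and RPFs fell by 0.82 ± 0.11. *Mup22* is among the near-identical major urinary protein genes, so its value is uncertain. The third was *Lars2*, the mitochondrial leucine synthetase, named after its values were seen, whose RNA fell from 537, 481 and 612 CPM in WT to 306, 315 and 444 in M while its RPFs rose by 0.45 ± 0.10. Of the 9 genes with lower TE, RNA rose for 8 and RPFs fell for 2. *A1cf*, a cofactor of apolipoprotein B mRNA editing, had 156, 179 and 175 RPF CPM in WT and 184, 173 and 184 in M, groups that overlapped, while its RNA rose from 136, 134 and 139 to 218, 209 and 197 CPM. RPFs of *Scaf1* fell by 0.46 ± 0.15 and its RNA rose by 0.69 ± 0.22, and *Eif1* is the one of the 9 whose RNA did not rise. *Rps23rg1*, a retroposed copy of a ribosomal protein gene, shares reads with its parent and is uncertain. None of the 9 passed the test without WT mouse 3 or without M mouse 1.

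For cytosolic ribosomal proteins, 0 of 80 genes were called in TE by edgeR, and 5 were called lower without WT mouse 2. Their median log2 TE change was -0.15, beside 0.00 over all genes, and lay between -0.29 and -0.04 with 1 mouse left out. Acute phase genes had a median TE change of -0.01, and endoplasmic reticulum genes of -0.02.

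Promoter windows of these genes, from 250 bases before to 50 after the annotated start on GRCm39 (GENCODE vM39), were searched on both strands for 3 words. These were the E-box CACGTG that MYC and MAX bind, the cell cycle homology region (CHR) TTTGAA and the box CCAAT, the last 2 known from promoters active in G2 and mitosis. Of 11099 genes tested in RPFs that had a window, 9.96% held the E-box, 13.8% the CHR word and 39.5% CCAAT. Genes whose RPFs rose held the E-box in 10.0% and those whose RPFs fell in 8.86%. Of the 92 genes with higher TE, 5.43% held the E-box, 41.3% the CHR word and 80.4% CCAAT. Mitotic genes held the CHR word in 45.8% and CCAAT in 63.9%, histone genes in 41.2% and 82.4%, and replication genes in 4.17% and 56.2%. Shares above those of all genes also stood in lists outside the cell cycle. The CHR word was in 40.0% of major urinary protein genes, 35.7% of conjugating enzymes and 32.0% of cytochromes P450, and CCAAT in 67.9% of endoplasmic reticulum chaperones, 67.7% of cholesterol genes and 61.8% of amino acid catabolism genes. The E-box stood in 15.4% of the 91 ribosome biogenesis genes with a window and in 8.75% of cytosolic ribosomal protein genes. Of the 41 ribosome biogenesis genes whose RPFs rose, 26.8% held it. Across the lists its share ranged from 0.0%, as in major urinary protein and histone genes, to 30.8% of 13 polyamine genes. It was 30.3% of 33 RNA polymerase III and tRNA modification genes, 26.3% of 19 circadian clock genes and 23.5% of 17 MYC network genes. A word in a window is a description, not a site in use.

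The 150 bases before the start are shown for 5 genes with higher TE, since the CHR word and CCAAT both stand in them. They were taken by a fixed rule from the 13 such genes, leaving out 8 whose stretch overlaps an exon. Capitals mark the CHR word (TTTGAA or, on the other strand, TTCAAA) and CCAAT (or ATTGG), and each is written 5′ to 3′ on the strand of its gene. The positions are those of the printed stretch, not of the gene. The stretch before *Cdkn3*, a phosphatase of cyclin-dependent kinases, is chr14:46997754-46997903 on the + strand, and that before *Ccnb2*, cyclin B2, is chr9:70328875-70329024 on the - strand. For the histone genes it is chr13:23758371-23758520 before *H2bc7* and chr13:23755395-23755544 before *H2ac8*, both on the - strand, and chr13:22227234-22227383 before *H2bc11* on the + strand.
Cdkn3: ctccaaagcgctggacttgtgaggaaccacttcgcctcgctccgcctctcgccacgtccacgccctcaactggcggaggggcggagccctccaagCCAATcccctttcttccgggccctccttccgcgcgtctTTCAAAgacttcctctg
Ccnb2: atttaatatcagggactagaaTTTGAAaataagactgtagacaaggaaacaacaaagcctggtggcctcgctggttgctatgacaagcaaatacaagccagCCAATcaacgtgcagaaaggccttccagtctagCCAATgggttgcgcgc
H2bc7: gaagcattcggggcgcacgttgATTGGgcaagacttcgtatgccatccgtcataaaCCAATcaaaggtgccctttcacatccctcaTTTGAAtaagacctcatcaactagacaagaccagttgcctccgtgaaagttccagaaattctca
H2ac8: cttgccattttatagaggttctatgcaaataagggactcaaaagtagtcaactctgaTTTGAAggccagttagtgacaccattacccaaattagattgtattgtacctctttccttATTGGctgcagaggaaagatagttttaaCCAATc
H2bc11: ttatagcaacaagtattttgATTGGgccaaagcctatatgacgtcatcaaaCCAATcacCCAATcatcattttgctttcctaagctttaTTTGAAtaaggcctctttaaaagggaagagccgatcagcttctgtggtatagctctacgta

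These 5 genes had the following levels. *Ccnb2* had 0.334, 0.771 and 0.93 RPF CPM in WT and 8.15, 12.4 and 10.3 in M, against 2.96, 3.3 and 3.01 and 4.76, 8.96 and 8.51 RNA CPM, and its TE rose by 2.69 ± 0.48 (adjusted p = 0.013). *Cdkn3*, at the floor in WT, had 0.167, 0 and 0 RPF CPM there and 1.3, 1.72 and 2.62 in M, an RPF level at least 6.33-fold higher by the floor of 3 counts in each library. *H2bc7* was also at the floor, with 0.251, 0.33 and 0.103 CPM in WT and 1.39, 1.86 and 1.27 in M, at least 5.07-fold higher, while its RNA was 61.6, 99.6 and 76.5 CPM in WT and 60.9, 56.7 and 79 in M. *H2ac8* TE rose by 2.53 ± 0.38 and *H2bc11* TE by 2.07 ± 0.48. In the histone genes of this set the RNA groups overlapped and the RPF groups did not.

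Finally the effect of MYC at day 4 was set against that at day 10, where another 3 M and 3 WT mice were profiled. At day 10, RPFs rose for 1198 and fell for 994 of 11300 genes (10.6% and 8.8%), and RNA rose for 951 and fell for 793 of 11143 (8.53% and 7.12%). The difference of the effects, tested over 12 mice, was called in RPFs for 63 genes higher and 73 lower at day 4 of 11530 (0.546% and 0.633%). In RNA it was called for 85 higher and 54 lower of 11564 (0.735% and 0.467%). For TE, edgeR called 0 in either direction of 10825 (0% and 0%), with 210 genes at an unadjusted p under 0.05, and DESeq2 also called 0. Counts rested on single mice. Without M mouse 3 of day 10, TE was called for 77 higher and 2 lower. RNA counts lower at day 4 were 7 without WT mouse 1 or M mouse 1 of day 4, 8 without M mouse 3 and 13 without WT mouse 3 of that day. RPF counts were 3 and 1 without M mouse 1 of day 4, 5 and 3 without WT mouse 1 of day 4, and 401 and 302 without M mouse 3 of day 10. That mouse had a summed mitotic RPF level of 1307 CPM against 449 and 434 in the other M mice of day 10.

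Among acute phase genes, 7 of 33 members had a lower RPF effect at day 4 than at day 10 and 8 a lower RNA effect. With 1 of the 12 mice left out these counts ranged from 1 (without WT mouse 1 or M mouse 1 of day 4) to 15 in RPFs, and from 2 (without M mouse 1 or 3 of day 4) to 13 in RNA. *Lbp*, which binds bacterial lipopolysaccharide, had 401, 211 and 231 RPF CPM in WT and 101, 118 and 96 in M at day 4, and 115, 136 and 114 and 118, 126 and 151 at day 10 (levels of each day are scaled within that day). It fell by 1.42 ± 0.21 at day 4, changed by 0.11 ± 0.13 at day 10, and the difference was -1.54 ± 0.29 (adjusted p = 0.0357). *Saa2* had 1256, 83.3 and 1297 CPM in WT and 19.3, 62.9 and 12.1 in M at day 4, and 14.2, 53.7 and 26.9 and 26.4, 29.7 and 57.5 at day 10. Its difference was -5.07 ± 1.19 (adjusted p = 0.0866), and WT mouse 2 of day 4 lay near M mouse 2 of that day. For major urinary protein RNA, 21 of 22 members fell at day 4 and none passed the test at day 10, with 16 of 22 members called for the difference. That count was 0 without WT mouse 1 or M mouse 1 of day 4, 1 or 2 without any one of 6 other mice, and up to 19 without M mouse 3 of day 10. In RPFs the difference was called for 1 of 16 members, and for 0 to 10 with 1 mouse left out. Their summed RNA at day 10 was 109708, 69879 and 146605 CPM in WT and 138979, 121504 and 64892 in M, so that WT mice of day 10 were below those of day 4.

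WT levels of *Fam13a* also differed between the days. Its RPFs were 5.43, 11.1 and 8.27 CPM in WT at day 4 and 36.4, 34.8 and 32.4 at day 10, while M mice had 48.5, 40.8 and 29.8 and 35.1, 44.2 and 41.6. The effect differed by 2.05 ± 0.29 in RPFs (adjusted p = 0.0305) and 2.13 ± 0.21 in RNA (adjusted p = 0.000126), and WT mice lay higher at day 10 than at day 4. *Sucnr1* had 63.7, 41.4 and 65.9 RPF CPM in WT and 64.5, 65.9 and 45.3 in M at day 10, against a rise at day 4. *Aqp8*, a water channel, rose at day 4 by 0.62 ± 0.16 and changed at day 10 by -1.06 ± 0.21, with 247, 142 and 195 CPM in WT and 76.1, 105 and 99.9 in M. *Adgrf1*, an adhesion receptor, fell by 1.05 ± 0.19 at day 4 and fell by 3.60 ± 0.33 at day 10. *Acly* rose at day 4 and changed by -0.94 ± 0.16 at day 10. It belongs to lipogenesis, where 19 of 31 genes fell in RPFs at day 10 against 10 at day 4, and the difference was called for 4 in RPFs and 8 of 30 in RNA. With 1 mouse left out, the counts were 0 (without WT mouse 1 or M mouse 1 of day 4) to 7 and 3 (without M mouse 1 of day 4) to 9.

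Growth genes were compared between the days. Ribosome biogenesis genes rose in RPFs for 68 of 93 at day 10 against 42 at day 4, and the difference was called for 9 in RPFs and 3 of 92 in RNA, all with the larger effect at day 10. Without M mouse 1 of day 4 these were 0 and 1, without WT mouse 1 of day 4 they were 1 and 1, and without M mouse 3 of day 10, 25 and 5. Mitotic RPFs rose for 55 of 73 tested at day 10. The difference from day 4 was called by edgeR and by DESeq2 for 0 of 87 members in RPFs and 0 of 83 in RNA, with 4 and 2 at an unadjusted p under 0.05 in edgeR. Without M mouse 3 of day 10, 32 had the higher RPF effect at day 4. Cytosolic ribosomal protein RPFs rose for 1 of 80 at day 10, while their RNA rose for 76 of 83 at both days. Here too both tools called the difference for 0 of 80 in RPFs and 0 of 83 in RNA, with 1 and 0 at an unadjusted p under 0.05, and without M mouse 3 of day 10 the RPF effect was higher at day 4 for 73 and lower for 1. Summed ribosomal protein RPFs at day 10 were 10663, 10398 and 9364 CPM in WT and 8744, 7587 and 19368 in M, so that M mouse 3 lay above and the other M mice below every WT mouse.

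**Figure D5:**
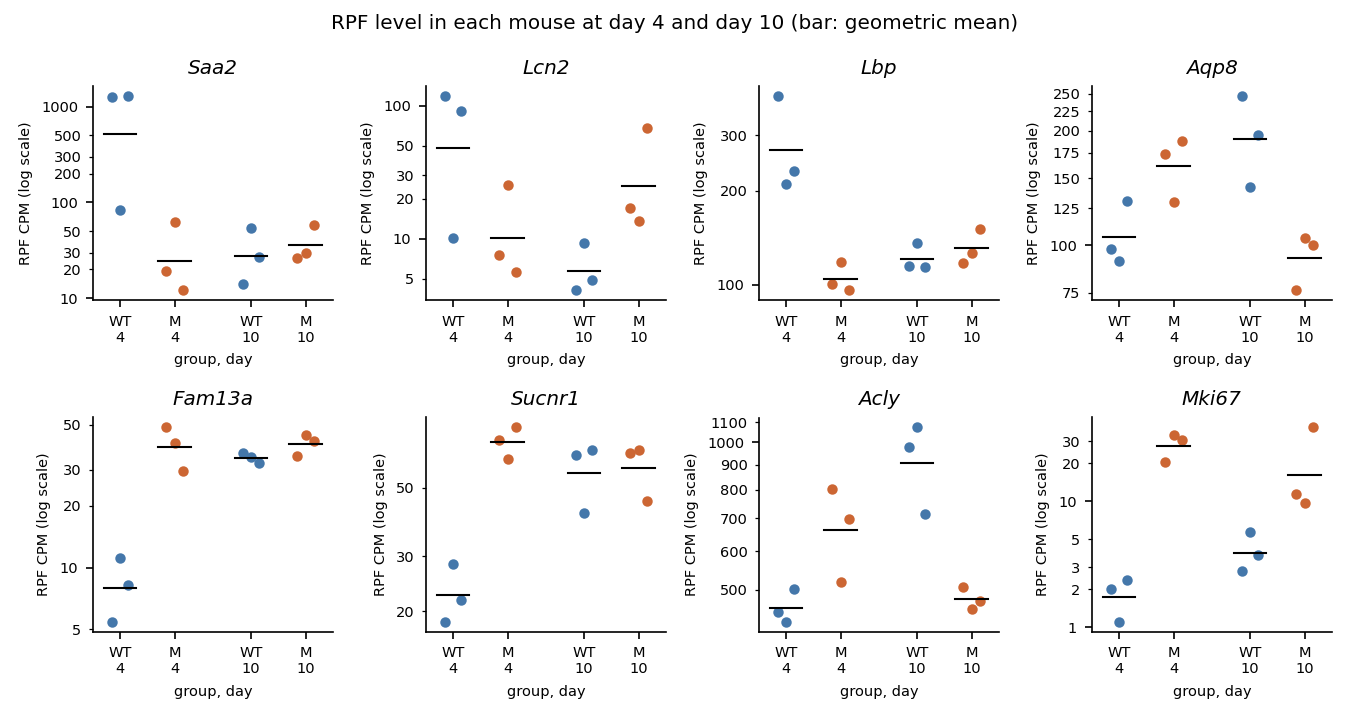
RPF level of 8 genes in each mouse at day 4 and day 10, in CPM on log axes, with WT in blue, M in orange and the geometric mean of 3 mice as a bar. *Saa2*, *Lcn2* and *Lbp* are lower in M than in WT on average at day 4 and not at day 10, *Fam13a* and *Sucnr1* are higher in WT at day 10 than at day 4, and *Mki67* is higher in M at both days.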

How the data were processed

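RPF and cytoplasmic RNA libraries were made from the same liver lysate of each mouse. Per the submitters' processing notes, tools included cutadapt 1.18, Bowtie2 2.3.5.1 and RSEM 1.3.3. For RPFs the authors trimmed and deduplicated reads by UMI, aligned them with BBmap to GENCODE vM27 transcripts (GRCm39), and deposited counts over coding sequences, 1 transcript (the most abundant) per gene, leaving out codons at both ends. For RNA the authors deposited RSEM expected counts per isoform beside TPM, FPKM and isoform percent values, of which only the expected counts were used here. Expected counts were summed per gene and rounded to whole numbers. A transcript with no line in an RPF library was taken as 0. At day 4 this applied to 1866 to 2593 of 15843 transcripts a library. Symbols came from GENCODE vM39.

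Each level was tested over the 6 mice with edgeR 4.0.16 (R 4.3.3; quasi-likelihood F test, TMM, filterByExpr with a minimum count of 10), and TE by a term for group by library type. Day 4 was set against day 10 by an interaction over 12 mice. Genes were called at an adjusted p under 0.1, which the study's methods state for TE and which was also used here for RPF and RNA levels. The floor for lower bounds was 3 counts per library. DESeq2 1.42.0 and the other alternatives are given in the closing section. The RPF, RNA and TE tests were also run on simulated counts with set changes, and no result given here rests on that run.

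Named genes were *Myc*, *Glul*, *Axin2* and *Lgr5*; the 10 called genes with the largest change in each direction with a mean of at least 20 CPM and no overlap of groups (for TE, with over 3 RPF counts in at least 1 mouse a group); up to 6 members of each list by RPF p with its defining or most counted gene; and 5 genes a direction for the difference between days. The members, lists and tests were chosen with earlier results of these data known.

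RPF and RNA libraries share an animal, and the deviations of a mouse from its group mean correlated between them (r of 0.31 to 0.53). A block for the mouse was therefore fitted for TE as an alternative. The TE values, errors and adjusted p given for genes and lists come from the fit without this block. Replicate numbers of WT and M mark separate mice. The lower bounds set WT at a fixed floor and carry no counting error of the M libraries.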

Additional observations from a re-analysis of the deposited data

Results flagged for a closer look

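The effect of MYC (log2 change of M against WT) at day 4 differed from that at day 10 for the following named genes, by edgeR's interaction test over 12 mice. Values are the effect at day 4 less the effect at day 10, and no cause was tested.

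The genes in this paragraph had the lower effect at day 4. In the acute phase list, 7 of 33 members were called lower in RPFs and 8 in RNA, or 1 and 3 without WT mouse 1 of day 4 and 1 and 2 without M mouse 1 of day 4. The difference was -5.07 in RPFs and -5.94 in RNA for *Saa2*, -4.87 in RNA for *Saa1* and -1.51 and -1.57 for *Saa4*. For *Lbp* it was -1.54 in RPFs and -1.47 in RNA. *Lcn2*, which binds bacterial siderophores, differed by -4.95 in RPFs and -4.68 in RNA, and had 4.08, 9.27 and 4.9 RPF CPM in WT and 17, 13.7 and 68 in M at day 10. For *Epha2*, an ephrin receptor, the difference was -1.56 in RPFs and -1.13 in RNA, with no call at day 4 itself. *Atp11a*, a phospholipid flippase, differed by -2.77 in RNA.

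Major urinary protein RNA also had the lower effect at day 4, by -2.36 for *Mup6*, -2.24 for *Mup17*, -2.09 for *Mup15* and -1.92 for *Mup2*. No major urinary protein RNA passed this test without WT mouse 1 or M mouse 1 of day 4. Reads of these near-identical genes can be split between them.

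Other genes had the higher effect at day 4. *Fam13a* differed by 2.05 in RPFs and 2.13 in RNA, *Sucnr1* by 1.58 and 1.87, and *Aqp8* by 1.67 and 1.70. *Acly* differed by 1.48 in RPFs and 1.33 in RNA. *Adgrf1* differed by 2.54 and 2.46, having fallen at both days. *Inmt*, a methyltransferase of indoles, differed by 1.24 in RPFs and 1.34 in RNA, and had 454, 427 and 525 RPF CPM in WT and 525, 443 and 477 in M at day 4 against 928, 623 and 749.9 and 324, 409.8 and 258 at day 10.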

How the results depend on the processing

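RPF counts at day 4 kept within 1.5 times of 2061 and 1637 under every alternative that was run, with 1599 and 1368 in DESeq2. RNA gave 994 genes higher in DESeq2. RNA genes lower numbered 758 at an adjusted p under 0.05 and 709 (without M mouse 1) to 1147 with 1 mouse left out. TE genes higher numbered 43 at a mean count of at least 50, 182 with the mouse as replicate block, and 42 to 91 with 1 mouse left out. TE genes lower numbered 18 in DESeq2, 94 with the block, 5 at 0.05, and 0 (without WT mouse 3 or M mouse 1) to 18 (without WT mouse 2) with 1 mouse left out. The share of TE calls that were higher was 91.1%, 65.9% with the block and 76.6% without WT mouse 2.

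For day 4 against day 10, RPF genes higher numbered 113 in DESeq2 and 31 at 0.05, and those lower 145 in DESeq2, 43 with the replicate number as block and 23 at 0.05. With 1 mouse left out they ranged from 3 to 401 and from 1 to 302. RNA genes higher numbered 233 with no filter and 39 at 0.05, and those lower 150 with no filter, 19 with the block and 10 at 0.05. With 1 mouse left out these ranged from 26 (without M mouse 1 of day 4) to 131 (without WT mouse 2 of day 10) and from 7 to 69 (without the same mice and, for 7, also without WT mouse 1 of day 4). TE genes numbered 1 higher with the mouse block, and 0 to 77 higher and 0 to 2 lower with 1 mouse left out, the upper values without M mouse 3 of day 10. The causes were not tested.

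Replicate numbers did not pair WT with M mice (correlations of deviations -0.20 to -0.08 in RPFs and 0.03 to 0.12 in RNA), and the number as block gave 1958 and 1501 RPF calls and 1603 and 1277 RNA calls at day 4. *Lgr5* TE reversed to -0.026 without WT mouse 3 and -0.029 without M mouse 2, within -0.029 to 0.16 over all mice left out, and the median TE change of neutrophil and blood markers to 0.031 without M mouse 2, within -0.14 to 0.031. Of values for named genes under alternatives, 808 kept their call, 114 lost it and 6 gained it. *Myc* TE was not called in DESeq2 or without WT mouse 3, M mouse 1 or M mouse 2. Low RPF counts of cell cycle genes in WT limit the precision of their changes.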
